A study of Rattus norvegicus with 39 samples.

Results

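The mature microRNAs rno-miR-10a-5p and rno-miR-148a-3p were followed in rat sperm across 4 doses of ethylene glycol monomethyl ether (EGME). They were picked out of the 405 rows of the mature miRNA count table because their share of the miRNA counts was higher at each dose step in these same counts. The dose contrasts of these 2 rows are therefore given as values with standard errors (SE) and without a test. A companion, rno-miR-10b-5p, was chosen by its sequence and not by its level, and its contrasts were tested. The libraries came from cauda epididymal spermatozoa of wild-type Fischer rats aged 11 to 12 weeks, with 1 male per library. Males received water (EGME0, 10 libraries) or EGME at 50 (EGME50, 10 libraries), 60 (EGME60, 9 libraries) or 75 mg/kg/d (EGME75, 10 libraries) by gavage for 5 days, and all groups shared a wait of 5 weeks before sperm were collected. The libraries were run on 13 Ion Torrent chips with 3 libraries each, and each chip held libraries of 2 or 3 dose groups.

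MicroRNAs are short RNAs that a protein of the Argonaute family holds and that pair with messenger RNAs mainly through the bases after the first, called the seed. The Mir10 genes lie inside the Hox gene clusters, and miR-10a and miR-10b are abundant in many epithelial and mesenchymal tissues. The miR-148/152 family is also broadly expressed, and one of its known targets is the messenger RNA of the DNA methyltransferase Dnmt1. EGME is an industrial solvent whose metabolite methoxyacetic acid damages spermatocytes. Mature sperm are nearly silent in transcription, and vesicles from the epididymal epithelium are known to deliver small RNAs to them during transit to the cauda.

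The mature sequences are shown because the seed decides which rows of the table can be called relatives. They are taken from RefSeq (GRCr8), 5′ to 3′, with bases 2 to 8 in capitals.
rno-miR-10a-5p: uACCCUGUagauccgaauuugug
rno-miR-10b-5p: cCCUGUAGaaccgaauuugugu
rno-miR-148a-3p: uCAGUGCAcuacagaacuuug
rno-miR-148b-3p: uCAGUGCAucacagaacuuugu
rno-miR-152-3p: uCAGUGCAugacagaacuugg
The annotated miR-10b-5p starts 2 bases further into the shared sequence than miR-10a-5p. Over the 21 bases that then align the 2 differ by the single substitution U12A, counted from the 5′ end of miR-10a-5p. Their annotated seeds are therefore different strings. This comes from the annotated start alone: in the Mir10b hairpin the 2 bases before it are UA. A miR-10b-5p read that began there would carry the seed ACCCUGU of miR-10a-5p. miR-148b-3p differs from miR-148a-3p by C9U and U10C, and miR-152-3p by C9U, U10G and U20G, all counted from the 5′ end of miR-148a-3p and all outside the seed. Of the 405 rows, 372 were matched to a RefSeq mature sequence. Among these, 1 row carried the seed of miR-10a-5p, 1 that of miR-10b-5p and 3 that of miR-148a-3p, which are the 3 printed above. How reads that fit both miR-10a-5p and miR-10b-5p were assigned is not given in the sources used here.

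The hairpins show where the counted arm lies, with the mature miRNA in capitals.
Mir10a (GRCr8, chr10:81779709-81779818, plus strand): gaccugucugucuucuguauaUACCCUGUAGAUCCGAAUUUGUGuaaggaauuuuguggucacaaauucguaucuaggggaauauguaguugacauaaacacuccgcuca
Mir148a (GRCr8, chr4:81664431-81664527, minus strand): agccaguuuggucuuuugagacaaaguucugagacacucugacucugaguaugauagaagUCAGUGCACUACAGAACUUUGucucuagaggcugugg
miR-10a-5p lies on the 5′ arm of its hairpin at chr10:81779730-81779752, and miR-148a-3p on the 3′ arm at chr4:81664447-81664467. The opposite arms were almost absent from the libraries. miR-10a-3p summed to 11 counts over the 39 libraries and miR-148a-5p to 2, against 5103 for miR-10a-5p and 310 for miR-148a-3p.

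The miRNA table was shallow, and its depth moved with dose. A library held between 139 and 38208 miRNA counts, with group medians of 15324.5 in EGME0, 14785.5 in EGME50, 9270 in EGME60 and 3201.5 in EGME75. As a share of the counts of all 4 deposited small RNA tables (244869 to 24308152 per library), miRNAs had a median of 0.156% in EGME0 and 0.0432% in EGME75. The EGME75 libraries 7, 23 and 24 had under 1000 miRNA counts (995, 807 and 139). A level in counts-per-million (CPM) of the miRNA table is thus a share of a pool that was itself smaller at the highest dose. In such bulk samples fewer cells of a type and less RNA per cell cannot be told apart.

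miR-10a-5p was listed in all 39 libraries and its share was higher in each successive dose group. In EGME0 it ranged from 2282 to 6033 CPM with a median of 3815 CPM. In EGME50 the lowest, median and highest libraries had 2535, 5946 and 14917 CPM, and in EGME60 2513, 14032 and 37030 CPM. In EGME75 they had 8674, 24826 and 51778 CPM. All 10 EGME75 libraries lay above the highest control library, as did 8 of 9 EGME60 and 5 of 10 EGME50 libraries, so the EGME75 range did not overlap that of EGME0 while the other ranges did. Among the 105 miRNAs that passed the filter on low counts, edgeR's quasi-likelihood test at an adjusted p of 0.05 called 2.86% higher at EGME50, 20% at EGME60 and 21.9% at EGME75. These shares belong to the same contrasts that chose the miRNA. They are of calls by the test and not of CPM ranges. How many other tested rows had an EGME75 range clear of that of EGME0 was not counted, so the lack of overlap is a description.

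**Figure D1:**
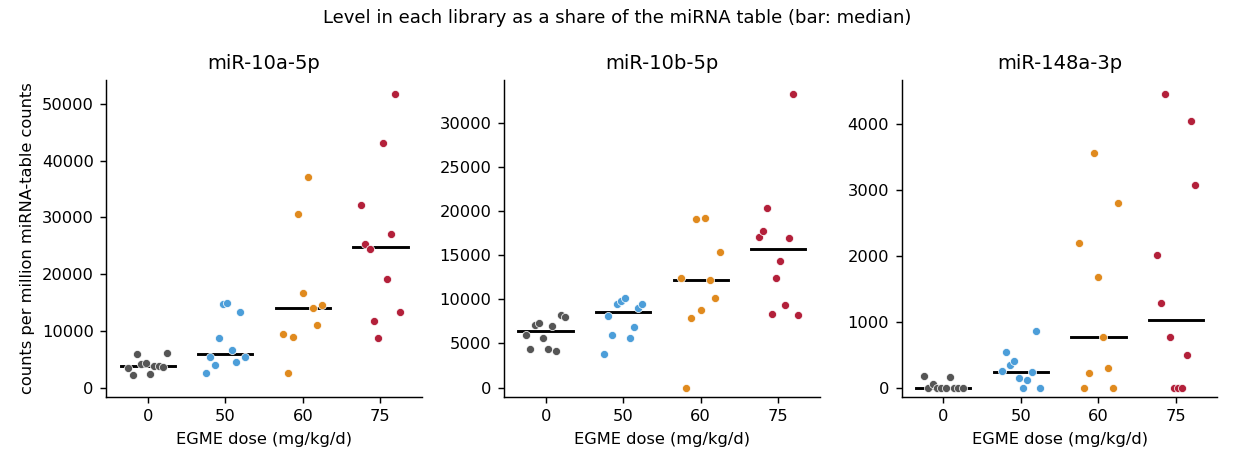
CPM of the miRNA table for miR-10a-5p, miR-10b-5p and miR-148a-3p against EGME dose in mg/kg/d, with 1 point per library and a bar at the group median. The miR-10a-5p medians run from 3815 CPM in EGME0 to 24826 CPM in EGME75, and miR-148a-3p is listed at 0 in 7 of 10 control libraries.

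The mean level of miR-10a-5p was 3965 ± 1240 CPM in EGME0 (SD, n = 10) and 25678 ± 13792 CPM in EGME75 (SD, n = 10), a ratio of means of 6.48. The means between were 7982 ± 4696 CPM in EGME50 (SD, n = 10) and 16054 ± 10956 CPM in EGME60 (SD, n = 9). By mean CPM it was row 39 of 405 in EGME0, then 29, 19 and 11 at the 3 doses. Fitted log2 fold changes against EGME0 were 0.72 (SE 0.32) at EGME50, 1.59 (SE 0.33) at EGME60 and 1.99 (SE 0.34) at EGME75. They are smaller than the ratios of CPM because the fit rescales each library by trimmed-mean (TMM) factors, which ran from 0.674 to 2.21. The fitted slope over 75 mg/kg/d was 1.94 (SE 0.33), beside a median of 0.04 over the 105 tested miRNAs, of which 24.8% were called higher on the slope. The step from EGME50 to EGME60 was 0.88 (SE 0.33). That from EGME60 to EGME75 was 0.40 (SE 0.33), about the size of its error, so the order of the 2 highest doses is not set beyond the spread between libraries.

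Counting error bears mainly on the shallow libraries. EGME75 library 24 had 6 miR-10a-5p counts of 139, or 43165 CPM with an exact 95% binomial interval of 16003 to 91584 CPM. EGME75 library 39, with 447 counts, had 51778 CPM (47198 to 56664). EGME60 library 6 had the lowest level of its group, 2513 CPM, from 5 counts (816 to 5854), so it cannot be placed apart from the control libraries. These intervals cover counting error only, since the reads carried no stated molecular identifiers.

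miR-148a-3p was scarce in the control libraries and was listed more often in each treated group. The 10 EGME0 libraries listed 5, 0, 2, 0, 0, 0, 3, 0, 0 and 0 counts. The EGME75 libraries listed 2, 6, 19, 5, 0, 0, 0, 4, 35 and 6 counts, although their total depth was lower. It was thus present in 3 of 10 EGME0 libraries against 7 of 10 EGME75 libraries, and in 8 of 10 EGME50 and 7 of 9 EGME60 libraries. A listed 0 may not mean that no read was seen: over the whole table the value 1 occurs 17 times, the value 2 occurs 1088 times and the value 3 occurs 406 times.

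As a share, miR-148a-3p had a median of 0 CPM and a highest value of 179 CPM in EGME0. The medians at the 3 doses were 238, 767 and 1028 CPM, and the highest values 862, 3555 and 4453 CPM. Above the highest control library lay 6 of 10 EGME50, 7 of 9 EGME60 and 7 of 10 EGME75 libraries, and every dose group also held libraries listed at 0, so each range overlapped that of EGME0. Pooled over each group's libraries, the level was 60.3 CPM in EGME0, 374 in EGME50, 1223 in EGME60 and 2022 CPM in EGME75. The control value rests on 10 counts in all and was 36.3 CPM without EGME0 library 1.

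The fitted log2 fold changes of miR-148a-3p were 2.12 (SE 0.76) at EGME50, 3.85 (SE 0.77) at EGME60 and 4.26 (SE 0.78) at EGME75. The slope over 75 mg/kg/d was 4.49 (SE 0.78). The step from EGME50 to EGME60 was 1.73 (SE 0.64) and that from EGME60 to EGME75 was 0.40 (SE 0.65), so here too the 2 highest doses are not separated. The row had the lowest control level of the 105 tested miRNAs, and it passed the filter through the dosed libraries. With 1 library left out in turn it passed in 34 of 39 fits, and it fell below the filter without EGME75 library 7, 8, 15, 39 or 40.

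miR-10b-5p served as a comparison because it differs from miR-10a-5p by so little in sequence. In EGME0 it ranged from 4092 to 8197 CPM with a median of 6454 CPM, above miR-10a-5p. The medians were 8593 CPM in EGME50, 12183 CPM in EGME60 and 15694 CPM in EGME75, where the lowest and highest libraries had 8188 and 33245 CPM. It lay above the highest control library in 9 of 10 EGME75 libraries. Its log2 fold change was 0.05 (SE 0.30, edgeR adjusted p = 0.948) at EGME50, with 2.86% of miRNAs called in either direction, and 0.52 (SE 0.31, edgeR adjusted p = 0.175) at EGME60, with 31.4% called. At EGME75 miR-10b-5p rose by 0.77 (SE 0.31, edgeR adjusted p = 0.0368), in a comparison where 42.9% of tested miRNAs were called in either direction. The slope was 0.70 (SE 0.29, edgeR adjusted p = 0.0409), with 45.7% called. The EGME75 call was lost without EGME0 library 9 (0.61, adjusted p = 0.108) or 18 (0.71, adjusted p = 0.064) and without EGME75 library 15 (0.79, adjusted p = 0.052) or 39 (0.60, adjusted p = 0.130). It was also lost without the filter on low counts (0.69, adjusted p = 0.176), with the chip as a block (0.66, adjusted p = 0.140) and with the totals of all 4 tables (0.02, adjusted p = 0.981). The slope call was lost under the same 3 settings (adjusted p = 0.127, 0.134 and 0.905). It was also lost without EGME0 library 2, 9, 17 or 18 or EGME75 library 8, 15 or 39, with adjusted p from 0.0504 to 0.114.

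Within a library the counts of the 2 miR-10 rows can be set against each other with no scaling. miR-10a-5p had fewer counts than miR-10b-5p in 10 of 10 EGME0 libraries. It had more counts than miR-10b-5p in 4 of 10 EGME50, 7 of 9 EGME60 and 9 of 10 EGME75 libraries. The median of the ratio of miR-10a-5p to miR-10b-5p was 0.579 in EGME0 (range 0.444 to 0.935), 0.795 in EGME50 (0.562 to 1.5) and 1.58 in EGME75 (0.70 to 3.0). In EGME60 it was 1.14 (0.762 to 1.93) over 8 libraries, because library 6 listed miR-10b-5p at 0. Without the 3 EGME75 libraries under 1000 miRNA counts, miR-10a-5p was ahead in 7 of 7, with ratios from 1.20 to 2.05, so the EGME75 ratios then lay wholly above those of EGME0. Since miR-10a-5p stands in this ratio and was chosen for its level, the ratio is a description.

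**Figure D2:**
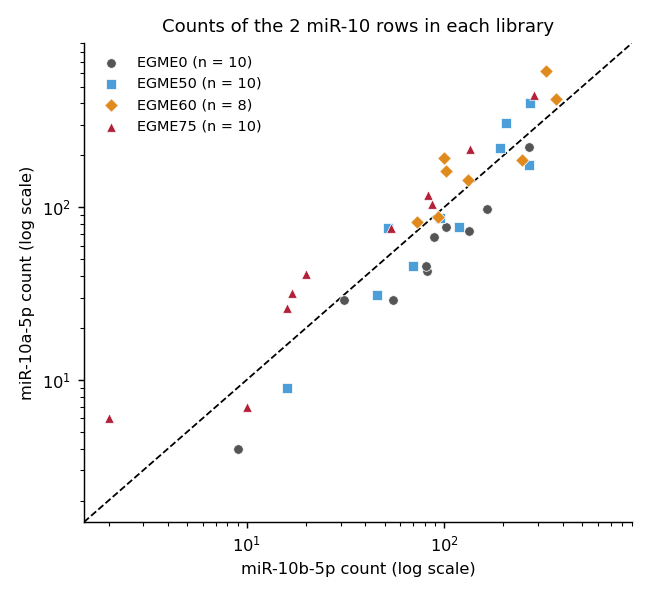
Counts of miR-10a-5p against counts of miR-10b-5p in each library on log axes, with 1 point per library coloured by dose, a line at equal counts, and EGME60 library 6 left out because its miR-10b-5p count is 0. All 10 EGME0 points lie below the line and 9 of 10 EGME75 points lie above it.

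The relatives that share the seed of miR-148a-3p were also scarce. miR-148b-3p summed to 12, 11, 26 and 6 counts in EGME0, EGME50, EGME60 and EGME75, and miR-152-3p to 39, 96, 100 and 16. Both were below the filter. In a fit without the filter, edgeR gave miR-152-3p a log2 fold change of 0.27 (SE 0.78, adjusted p = 0.976) and miR-148b-3p 0.07 (SE 0.86, adjusted p = 1) at EGME75, where 16.6% of 404 miRNAs were called. At EGME60, where 15.1% were called, it gave 1.17 (SE 0.71, adjusted p = 0.217) and 1.5 (SE 1.01, adjusted p = 0.266). These standard errors are well above that of miR-10a-5p in the same fit, 0.37 at EGME60 and at EGME75, so at this depth only large changes were detectable.

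Among the counts that carry the shared seed, the member that supplied most of them was different at the lowest and highest dose. miR-148a-3p made up 16.4% of the 61 seed-sharing counts in EGME0, 38.2% of 173 in EGME50, 55.5% of 283 in EGME60 and 77.8% of 99 in EGME75. Leaving out 1 library in turn, its share ran from 9.26% to 21.1% in EGME0 and from 72.5% to 81.1% in EGME75. In EGME0 miR-152-3p had more counts than miR-148a-3p in 6 libraries and fewer in 1, and in EGME75 it had fewer in 7 and more in 0. These shares need no scaling between libraries, but they contain the row chosen for its level and were computed after its values had been seen, so no test is given.

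The wider miR-10 family, whose members resemble miR-10 in sequence, gave 4 tested rows, of which 1 was called higher at EGME75 and 0 lower, beside 21.9% called higher and 21% lower over all 105. miR-125b-5p rose by 0.89 at EGME75 (SE 0.31, edgeR adjusted p = 0.0147), although it had -0.10 when scaled by the totals of all 4 deposited tables. miR-99a-5p had 0.57 (SE 0.33, adjusted p = 0.151), miR-125a-5p 0.48 (SE 0.44, adjusted p = 0.363) and miR-99b-5p -0.68 (SE 0.75, adjusted p = 0.440). miR-100-5p, with 248 counts, was below the filter. Its mean was 173 CPM in EGME0 and 832 CPM in EGME75, and without the filter edgeR gave 1.73 at EGME60 (SE 0.70, adjusted p = 0.0728, 15.1% of 404 miRNAs called), 1.48 at EGME75 (SE 0.74, adjusted p = 0.138) and a slope of 1.67 (SE 0.70, adjusted p = 0.0752, 22.3% called). The call of miR-125b-5p was lost without EGME0 library 9 (0.61, adjusted p = 0.108) or EGME75 library 31 (0.68, adjusted p = 0.079), and also without the filter (0.75), with the chip as a block (0.72) and with the log10 miRNA total as a covariate (0.50).

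Rows of like control level serve to show what the fit gave at that depth. In the order of mean control CPM, miR-10a-5p stood 39th of the 105 tested rows. Next above it stood miR-99a-5p, described above, with 4276 CPM in EGME0 and 11380 CPM in EGME75. By miRNA totals alone miR-99a-5p had 1.21 at EGME75 (edgeR adjusted p = 0.0032), where 43 of 105 miRNAs were called. Next below miR-10a-5p stood miR-23b-3p, with 3559 CPM in EGME0 and 5074 CPM in EGME75, and a log2 fold change of 0.15 (SE 0.34, edgeR adjusted p = 0.715). Above miR-148a-3p, the last row, stood miR-200a-3p, an epithelial miRNA, with 134 CPM in EGME0 and 2664 CPM in EGME75 and a log2 fold change of 3.51 (SE 0.69). With 33 counts in EGME0, miR-200a-3p could pass the filter only with counts from the dosed libraries, as miR-148a-3p did. The filter thus favoured its rise, and this neighbour does not show what the fit gives at so low a level.

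**Figure D3:**
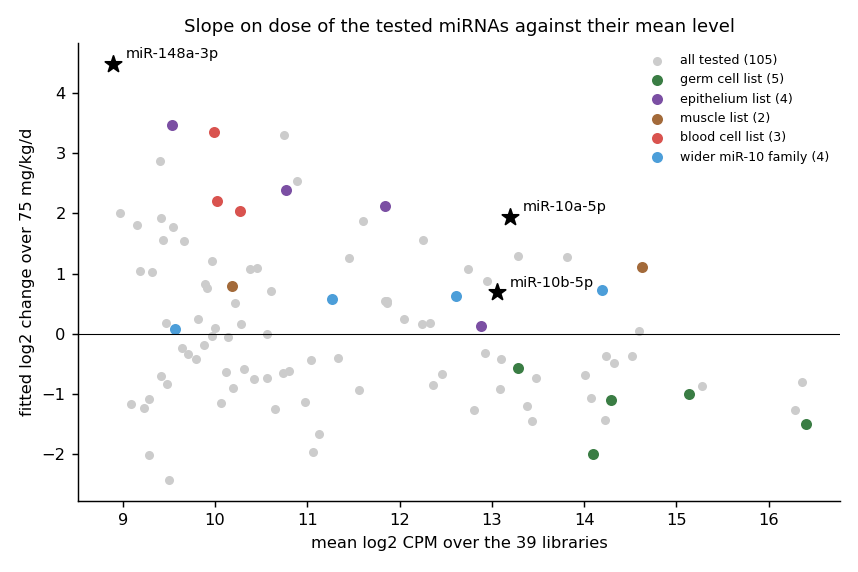
Fitted slope on dose (log2 change over 75 mg/kg/d) of the 105 tested miRNAs against their mean log2 CPM over the 39 libraries, with 1 point per miRNA and colours for the marker lists and the wider miR-10 family. miR-148a-3p (4.49) lies at the left edge and miR-10a-5p (1.94) among rows of higher level, while the 5 germ cell rows lie below 0.

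Markers of other cells moved with dose in the same libraries. The lists were taken over from an earlier account of these data, so their direction is not independent evidence. The 5 epithelial miRNAs (the miR-200 family, abundant in epithelial cells) summed to 0.625% to 1.29% of miRNA counts in EGME0 and to 1.81% to 4.77% in EGME75. Of 4 tested, 3 were called higher at EGME75, where 21.9% of all tested miRNAs were, and none of the 5 was at 0 in a group. Among the 3 called, miR-200a-3p and miR-429 had 33 and 86 counts in EGME0. Both could pass the filter only with counts from the dosed libraries, so the filter favoured their rise. The tested row not called was miR-200c-3p, with 0.19 at EGME75 (SE 0.32, edgeR adjusted p = 0.612). It had the most EGME0 counts of the list, 1051. By the totals of all 4 tables, 1 of the 4 was called. The 6 germ cell miRNAs of the miR-34 and miR-449 families summed to 19.8% to 33.1% in EGME0 and 6.47% to 22.1% in EGME75, with 4 of 5 tested called lower, where 21% of all tested miRNAs were, and miR-449c-5p at 0 in EGME0. Only 2 of the 5 were called by miRNA totals alone, with the log10 miRNA total as a covariate, or without the 3 shallow libraries. In EGME50 and EGME60 the epithelial sums ran from 0.612% to 3.33% and from 0.251% to 3.01%, and the germ cell sums from 11.1% to 25.5% and from 10.9% to 28.1%. Germ cell miRNAs thus made up a median of 26.3% of the control counts of these libraries labelled as sperm, and 13.3% in EGME75.

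Blood cell and muscle markers were described in the same way. The 6 blood cell miRNAs in the table had medians of 0.114%, 0.289%, 0.837% and 0.788% in EGME0, EGME50, EGME60 and EGME75, with highest libraries at 0.343%, 1.24%, 2.17% and 4.82%. All 3 tested were called higher at EGME75 (21.9% of all tested miRNAs), though 0 were with the totals of all 4 tables. These were miR-451-5p, miR-223-3p and miR-150-5p, with 51, 95 and 71 counts in EGME0. They could pass the filter only with counts from the dosed libraries, so the filter favoured rows that rose and their shared direction is a description. miR-144-3p was at 0 in EGME0, EGME50 and EGME75. The untested miR-142-5p went against the sum, with 43 counts in EGME0 and 19, 18 and 7 at the 3 doses. The groups held 165728, 176245, 128321 and 38082 miRNA counts in all. The 4 muscle miRNAs had medians of 1.67%, 2.33%, 3.63% and 3.70%, with highest libraries at 3.27%, 4.58%, 11.7% and 9.8%. Of 2 tested, 1 was called higher at EGME75 (21.9% of all tested miRNAs), though 0 were with the totals of all 4 tables or with the chip as a block. The other 2 muscle miRNAs went against the sum: miR-1-3p was at 28 counts in EGME0 and 0 in all 3 dosed groups, and miR-133a-3p had 173 counts in EGME0 and 15, 15 and 8 at the 3 doses. The part of these cells in the levels of miR-10a-5p and miR-148a-3p was not tested.

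The miRNAs whose levels ran most alike were found by Pearson's r of log2 CPM over the 39 libraries, which share their depth and their dose groups. For miR-10a-5p these were miR-200a-3p (r = 0.70), miR-429 (0.69), miR-99a-5p (0.65), miR-451-5p (0.64) and miR-205 (0.64). For miR-148a-3p they were miR-22-3p (r = 0.72), miR-27a-3p (0.67), miR-200a-3p (0.65), miR-205 (0.65) and miR-203a-3p (0.63). The epithelial miR-200a-3p and miR-205 were on both lists, and the blood cell marker miR-451-5p was on that of miR-10a-5p. The 2 miRNAs themselves had r = 0.59, and 0.35 once each group's mean was subtracted. With group means subtracted, miR-10b-5p was the row most like miR-10a-5p (r = 0.64), while without that subtraction it stood 11th (r = 0.56). The lists moved with the measure: after that subtraction 3 of the 5 rows named for miR-10a-5p and 3 of 5 for miR-148a-3p were among the leading 5, and by Spearman's rho 2 of 5 and 3 of 5. By both of these measures miR-200a-3p left the leading 5 of miR-148a-3p, and miR-429 and miR-451-5p left those of miR-10a-5p. With a prior count of 0.5, miR-205 left those of miR-10a-5p and miR-451-5p joined those of miR-148a-3p.

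Libraries of the same chip allow a comparison within a run. Some control libraries serve more than 1 comparison: chip 13 held 2 EGME50 libraries, and chips 10 and 1 held 2 EGME60 libraries each. The counts below are thus not of independent pairs, and for the 2 chosen miRNAs they are a description. miR-10a-5p had a higher CPM than the control library on its chip in 7 of 7 EGME50, 6 of 7 EGME60 and 6 of 6 EGME75 libraries. miR-148a-3p was higher in 6 of 7, 5 of 7 and 3 of 6, with 2 EGME60 and 2 EGME75 libraries equal to their control at 0. miR-10b-5p was higher in 5 of 7, 6 of 7 and 6 of 6, but in 1 of 6 EGME75 libraries when the counts of all 4 tables were the denominator, where miR-10a-5p was higher in 5 of 6. With the chip as a block in the fit, the log2 fold change at EGME75 was 1.97 for miR-10a-5p and 3.84 for miR-148a-3p.

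The denominator decided how large the difference was. In counts-per-million of all 4 tables together, written all-table CPM, miR-10a-5p had medians of 5.48 in EGME0, 10.9 in EGME50, 16.1 in EGME60 and 6.77 in EGME75. Its range was 2.98 to 18.1 in EGME0 and 2.81 to 101.8 in EGME75, and 2 of 10 EGME75 libraries lay above the highest control library instead of 10 of 10. On this scale the medians were not ordered by dose, and EGME75 overlapped EGME0. The means were ordered (7.33, 15.2, 17 and 18.3 all-table CPM), but without EGME75 library 39 the EGME75 mean was 9.03. miR-148a-3p had medians of 0, 0.32, 0.46 and 0.38 all-table CPM, with 4 of 10 EGME75 libraries above the highest control.

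**Figure D4:**
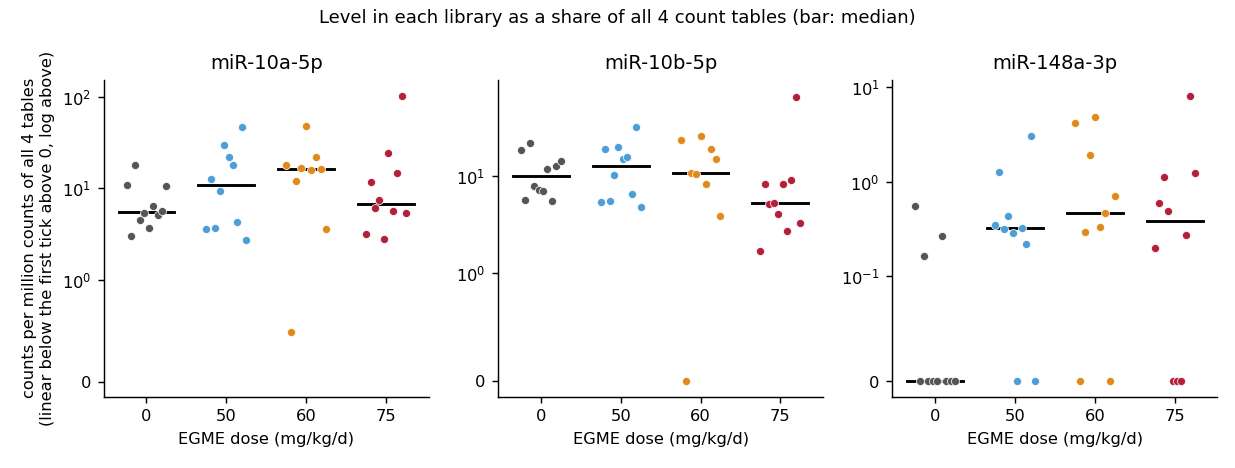
All-table CPM (a share of the counts of all 4 deposited tables) against EGME dose in mg/kg/d for miR-10a-5p, miR-10b-5p and miR-148a-3p, with 1 point per library, a bar at the group median and an axis that is log above its first tick. The miR-10a-5p median is 16.1 in EGME60 and 6.77 in EGME75, and EGME75 library 39 stands far above its group at 101.8.

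A single library carried much of the EGME75 level on that scale. EGME75 library 39 had 101.8 all-table CPM of miR-10a-5p and 7.97 of miR-148a-3p. Scaled by the totals of all 4 tables, the log2 fold change of miR-10a-5p at EGME75 was 1.30 (SE 0.59), and 0.17 (SE 0.57) without that library. The median over the tested miRNAs was -1.13 on this scale (105 rows) and -1.92 without that library (107 rows, since the filter was applied again). It was -0.10 with TMM factors and 0.49 by the miRNA totals alone. A changed denominator moves all rows of a library together, and miR-10a-5p was chosen for its share of the miRNA counts. That it lay above these medians is therefore a description. miR-148a-3p had 3.37 (SE 0.95) on this scale. Without library 39 it was below the filter, and its pooled level in EGME75 went from 0.942 to 0.543 all-table CPM, against 0.108 in EGME0. miR-10b-5p had 0.02 (SE 0.58, edgeR adjusted p = 0.981), in a comparison where 40% of tested miRNAs were called in either direction and 37.1% were called lower.

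**Figure D5:**
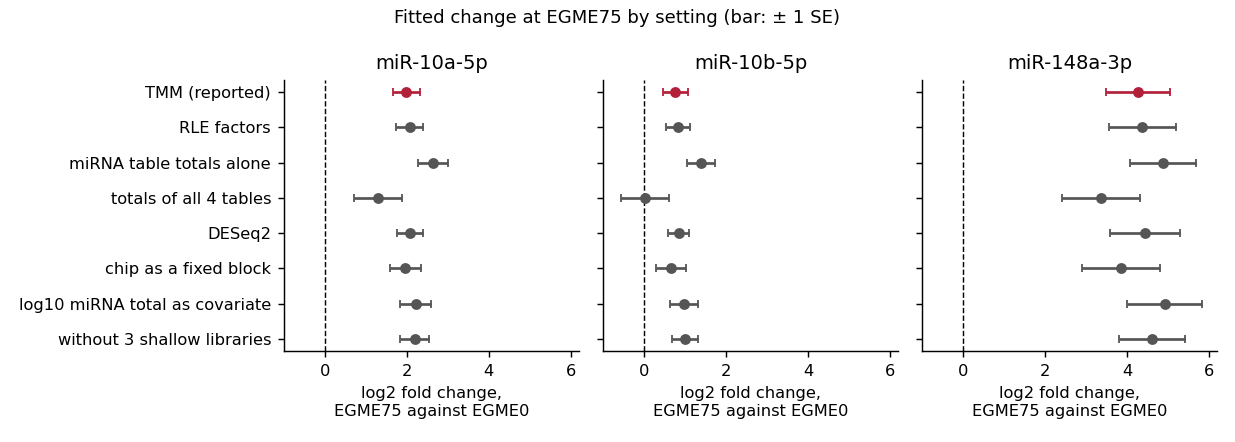
Fitted log2 fold change at EGME75 against EGME0 under 8 settings of scaling, test, covariate and libraries for miR-10a-5p, miR-10b-5p and miR-148a-3p, with bars of 1 SE. The miR-10a-5p values lie between 1.30, by the totals of all 4 tables, and 2.65, by the miRNA totals alone, and the miR-10b-5p value by the totals of all 4 tables is 0.02.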

How the data were processed

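The deposited values are whole-number counts per mature miRNA, and per feature in 3 other small RNA tables, in 39 libraries. Per the labels' protocols, RNA was extracted with mirVana and DNase treated, and libraries were made with the Ion total RNA-seq kit. The submitters' processing notes name FastQC, Bowtie and DESeq2, with no versions. The build behind the miRNA counts is not given in the sources used here.

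Counts were tested with edgeR 4.0.16 (R 4.3.3): TMM factors, filterByExpr by group (105 of 405 rows, 97.1% of counts), a robust quasi-likelihood fit over all 39 libraries, each dose against EGME0 and a slope on dose, two-sided, with Benjamini-Hochberg adjustment over the 105 rows and a threshold of 0.05. Log2 CPM used a prior count of 2. Scripts were tested on simulated data. Libraries had 139 to 38208 miRNA counts, so single libraries resolve only abundant rows.

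Alternatives were RLE factors, miRNA totals alone, totals of all 4 tables, no filter, DESeq2 1.42.0, the chip as a block, the log10 miRNA total as a covariate, the 3 shallow libraries left out, and each library left out. The 2 members and all lists were chosen with earlier results of these data known. Named rows are the members, miR-10b-5p, relatives by seed, arm or family, the marker lists, the 5 most correlated rows and the neighbours in control level.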

Additional observations from a re-analysis of the deposited data

Results flagged for a closer look

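Values were checked in 28 groups: miR-10a-5p, miR-148a-3p and miR-10b-5p on 2 scales, and the ratio of miR-10a-5p to miR-10b-5p counts, each at 4 doses. Of these, 8 had a highest library that stood apart from the rest of its group by Dixon's criterion. Chance gives this in about 1 in 20 groups of normally distributed values, which these counts were not shown to be. EGME75 library 39 accounts for 4 of them. It had 101.8 miR-10a-5p, 7.97 miR-148a-3p and 65.3 miR-10b-5p all-table CPM (a share of the counts of all 4 tables), and 33245 CPM of miR-10b-5p among the miRNA counts. The other libraries stood apart only in all-table CPM. For miR-10a-5p these were EGME0 library 9 at 18.1 and EGME60 library 21 at 48.3. For miR-148a-3p these were EGME0 library 1 at 0.557, from 5 counts, and EGME50 library 35 at 3.01.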

How the results depend on the processing

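The log2 fold changes of miR-10a-5p and miR-148a-3p stayed above 0 at every dose under every alternative that gave a value. With 1 library left out, those of miR-10a-5p ran from 0.55 to 0.83 at EGME50, 1.44 to 1.72 at EGME60 and 1.82 to 2.17 at EGME75 (slope 1.81 to 2.07), and those of miR-148a-3p from 1.76 to 2.74, 3.65 to 4.50 and 4.09 to 4.97 (slope 4.35 to 5.27). With the totals of all 4 tables and without EGME75 library 39, miR-10a-5p had 0.17 (SE 0.57) at EGME75 and a slope of 0.79 (SE 0.64). Neither is set apart from 0 by its error, and miR-148a-3p gave no value there. Both rows were chosen for their rise in these same counts, so their sign across these fits is a description. The log2 ratios of EGME75 to EGME0 levels with all 4 tables as denominator were 1.32 for miR-10a-5p, 3.59 for miR-148a-3p and 0.011 for miR-10b-5p.

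miR-10b-5p lost its EGME75 and slope calls with the totals of all 4 tables (0.021 and 0.11), no filter (0.69 and 0.66) and the chip block (0.66 and 0.61). With the totals of all 4 tables it had -1.12 and -0.47 without EGME75 library 39, and 0.19 and 0.28 without EGME0 library 9. By miRNA totals alone it was called at EGME60 (0.94). At EGME50 it was -0.16 by RLE factors and -0.15 by DESeq2. With 1 library left out it ran from -0.0059 to 0.16 at EGME50, 0.47 to 0.65 at EGME60 and 0.60 to 0.94 at EGME75 (slope 0.58 to 0.82), and the slope call was lost in 7 of 39 fits. By the totals of all 4 tables, values at EGME75 were -0.54 for miR-99a-5p, -0.68 for miR-125a-5p, -0.10 for miR-125b-5p, and, pooled, -0.83 for miR-148b-3p and -1.11 for miR-152-3p. The causes were not tested.

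Calls at EGME50 (3 by edgeR, 3 by DESeq2) were 11 by miRNA totals alone and 11 without the filter. They were 0 by RLE factors, 0 by totals of all 4 tables and 0 with the chip block, where 18, 9 and 8 miRNAs had an unadjusted p under 0.05. The 4-table totals gave 1 call at EGME60 and 22 on the slope, and no filter 61 and 90. With 1 library left out, calls ran from 0 to 5 at EGME50, 26 to 42 at EGME60, 41 to 50 at EGME75 and 40 to 53 on the slope. Libraries could not be paired by replicate number, because none is shared between dose groups. Chips were shared, and the chip block above is the matched fit. Depth limits miR-148a-3p most, with 10 control counts in all.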
